A study of Mus musculus with 4 samples.

Results

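Fibroblasts that carry Pi16 and Dpp4 are described here in single-cell RNA sequencing of mouse mammary tumors. A barcode counted as a Pi16 Dpp4 fibroblast when it had at least 2000 UMIs (unique molecular identifiers, each a counted RNA molecule), at most 20% mitochondrial UMIs, at least 20 UMIs of Col1a1, Col1a2, Col3a1 and Dcn together per 10000, fewer than 10 of Epcam, Krt8 and Krt18 per 10000, at least 1 UMI of Pdgfra or Lum, no UMI of Ptprc, Pecam1 or Rgs5, and at least 2 UMIs of Pi16 and Dpp4 together. Of 23876 barcodes with at least 2000 UMIs, 994 passed the fibroblast limits, and 802 of these (80.68%) were Pi16 Dpp4 fibroblasts. The comparison fibroblasts were the 141 that passed the same limits with no UMI of either gene, and 51 cells with 1 UMI entered neither class. The cells were thus chosen by their UMIs of these 14 genes in all 4 libraries, and levels of those genes are given as a description, without a test.

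The study deleted Frmd8 in the luminal epithelium of mice that develop mammary tumors from the PyMT oncogene. Tumors were taken at 17 to 18 weeks, and the floxed and PyMT lines were on a C57BL/6 background. Each of the 4 libraries, labeled as replicates 1 to 4, was taken here as 1 mouse. The MMTV-Cre-; Frmd8 fl/fl; PyMT group (Cre-) held replicates 1 and 3 and the MMTV-Cre+; Frmd8 fl/fl; PyMT group (Cre+) held replicates 2 and 4, so that both groups carried the PyMT transgene and the floxed Frmd8 alleles and differed in Cre. The MMTV promoter directs Cre to luminal epithelial cells, and fibroblasts were not its target. Cells had been sorted by flow cytometry before capture, with a gate that is not given in the sources used here, so shares among sorted cells need not be shares in the tumor.

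Wherever 4 values are listed, the Cre- pair comes first (replicate 1, then 3) and the Cre+ pair follows (replicate 2, then 4). The libraries held 122658098, 126843597, 112729231 and 157662955 UMIs, and 5550, 5871, 5879 and 6576 barcodes with at least 2000 UMIs. Cre+ replicate 4 stood apart in its processing, since its file listed every barcode, 2582424 of them, and came from Cell Ranger 4, whereas the other 3 came from version 6.1.2. Among the barcodes with at least 2000 UMIs, 66 sequences were shared over the 6 pairs of libraries, and 0 of these were Pi16 Dpp4 fibroblasts in both libraries.

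Fibroblasts with Pi16, a protein of the CAP family, and Dpp4, a surface dipeptidyl peptidase, are known from many mouse tissues. They lie in the adventitia, the connective sheath around vessels and ducts, and in fascia, carry the stem cell antigen Ly6a (Sca-1) and the sialomucin Cd34, and can give rise to more specialized fibroblasts and to preadipocytes. In the mammary gland, connective tissue fibroblasts surround the ducts and border the fat pad, and in tumors adventitial fibroblasts are set apart from contractile, matrix-depositing fibroblasts that carry smooth muscle actin (Acta2).

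The 802 cells numbered 136, 229, 351 and 86 in the 4 libraries. They made up 2.45%, 3.90%, 5.97% and 1.31% of the barcodes. They were deeply sampled, with medians of 22014.5, 26524, 29062 and 20798.5 UMIs and of 4673, 5089, 5330 and 4584 genes per cell. Comparison fibroblasts numbered 55, 46, 27 and 13, with medians of 33024, 12042.5, 5605 and 13923 UMIs. Pi16 Dpp4 fibroblasts were thus the shallower class in Cre- replicate 1 and the deeper class in the other 3 libraries.

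Both marker genes were present together in 584 cells (72.82%). Pi16 was detected in 793 cells and Dpp4 in 593, and 9 cells were admitted through Dpp4 without Pi16 against 209 through Pi16 without Dpp4. Pi16 had medians of 21, 21, 53 and 35 UMIs per cell, with single cells reaching 157, 327, 349 and 186. Dpp4 was sparser, at medians of 3, 2, 6 and 1 UMIs. In counts per 1000000 UMIs of the summed cells (CPM), Pi16 stood at 1400, 1283, 2148 and 2025 and Dpp4 at 246, 168, 258 and 95.8. Lum, a matrix proteoglycan, was detected in 799 and Pdgfra, the fibroblast receptor for platelet-derived growth factor, in 757 of the 802 cells, and both genes took part in the selection.

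The limit of 2 UMIs was also reached by some cells of other types, in epithelial cells mostly through Dpp4. Among epithelial cells, 6.56%, 4.26%, 8.54% and 6.53% held at least 2 UMIs of Pi16 and Dpp4 together, at median depths of 25829, 23937, 13996.5 and 17164 UMIs. Counting Pi16 alone, the shares of epithelial cells with at least 2 UMIs were 0.0538%, 0.618%, 0.461% and 0.099%. Macrophages, which are not known to express Pi16, reached the limit in 0.692%, 3.21%, 2.88% and 1.56% of cells at median depths of 12257, 17539, 13775.5 and 19289 UMIs, and held at least 2 UMIs of Pi16 alone in 0.461%, 1.99%, 1.19% and 0.251%. These shares lay far below those of the gated fibroblasts. Barcodes with at most 100 UMIs in Cre+ replicate 4, taken as droplets without a cell, held Pi16 at 19.9, Dpp4 at 6.62 and Dcn at 151 CPM.

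Cells near the limit differed by gene. The 32 cells with exactly 2 UMIs, pooled over libraries, held Cd34 at 363 CPM, against 124 CPM in the 51 cells with 1 UMI and 104 CPM in the 141 comparison cells. Clec3b, a plasminogen-binding lectin of loose connective tissue, stood at 393, 249 and 132 CPM in that order, and Acta2 at 228, 1611 and 1412 CPM. Cd248 and Pcolce2 stood at 334 and 126 CPM with 2 UMIs and at 326 and 132 CPM with 1 UMI, nearly level. The libraries also differed, since the 9 cells of Cre- replicate 1 with 1 UMI already held Cd34 at 347, Clec3b at 385 and Acta2 at 9.63 CPM.

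The comparison class was mixed. At least 1 UMI per 10000 of the basal epithelial genes Krt14, Krt5, Krt17, Trp63 and Sox10 together, or fewer than 5 UMIs of Dcn per 10000, was found in 38 of its 141 cells and in 11 of the 802 Pi16 Dpp4 fibroblasts. Results of the class comparison are therefore given both with all cells and without these cells (the purified comparison, an alternative chosen after the data had been seen). At least 2 UMIs of macrophage, T cell, endothelial, mural or glial markers (C1qa, C1qb, C1qc, Tyrobp, Cd3e, Cdh5, Cldn5, Notch3 and Sox10 together) were found in 275 Pi16 Dpp4 fibroblasts and 66 comparison cells, and more than 30000 UMIs in 305 and 50 cells. Doublets were not called, and the part of doublets in these counts was not tested.

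Of the adventitial markers that took no part in the selection, most were higher in Pi16 Dpp4 fibroblasts. Cd34 stood at 815, 577, 856 and 626 CPM, against 84.6, 73.8, 219 and 196 CPM in the comparison fibroblasts of the same libraries. The lowest Pi16 Dpp4 value was more than the highest comparison value, and the log2 fold change was 2.53 (standard error 0.285, edgeR adjusted p = 0.00098) and 1.97 in the purified comparison (adjusted p = 0.00668). Ly6c1, a GPI-anchored Ly6 protein, stood at 1117, 1069, 1349 and 887 CPM against 78.8, 98.1, 276 and 361 CPM, a log2 fold change of 2.78. Sema3c, a secreted semaphorin, was at 438, 360, 689 and 342 CPM against 24.2, 12.6, 70.4 and 49.9 CPM, a log2 fold change of 3.86. For both genes the classes did not overlap, with the comparison fibroblasts of the Cre+ libraries higher than those of the Cre- libraries. Clec3b stood at 852, 987, 1130 and 984 CPM against 39.9, 194, 171 and 503 CPM, and the comparison cells of Cre+ replicate 4 were nearest to the Pi16 Dpp4 cells. Mfap5, a microfibril protein, was abundant in both classes, at 2286, 3158, 3323 and 2716 CPM against 974, 1535, 1550 and 1118 CPM, a log2 fold change of 1.20.

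Dcn, the third of the marker genes that name these cells and a gene of the fibroblast limit, did not separate the classes everywhere. It stood at 6766, 6979, 7144 and 9309 CPM in Pi16 Dpp4 fibroblasts and at 3058, 3101, 6596 and 12144 CPM in comparison fibroblasts, so its order turned in Cre+ replicate 4. Collagen genes of the limit were abundant in both classes, as the selection required.

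**Figure D1:**
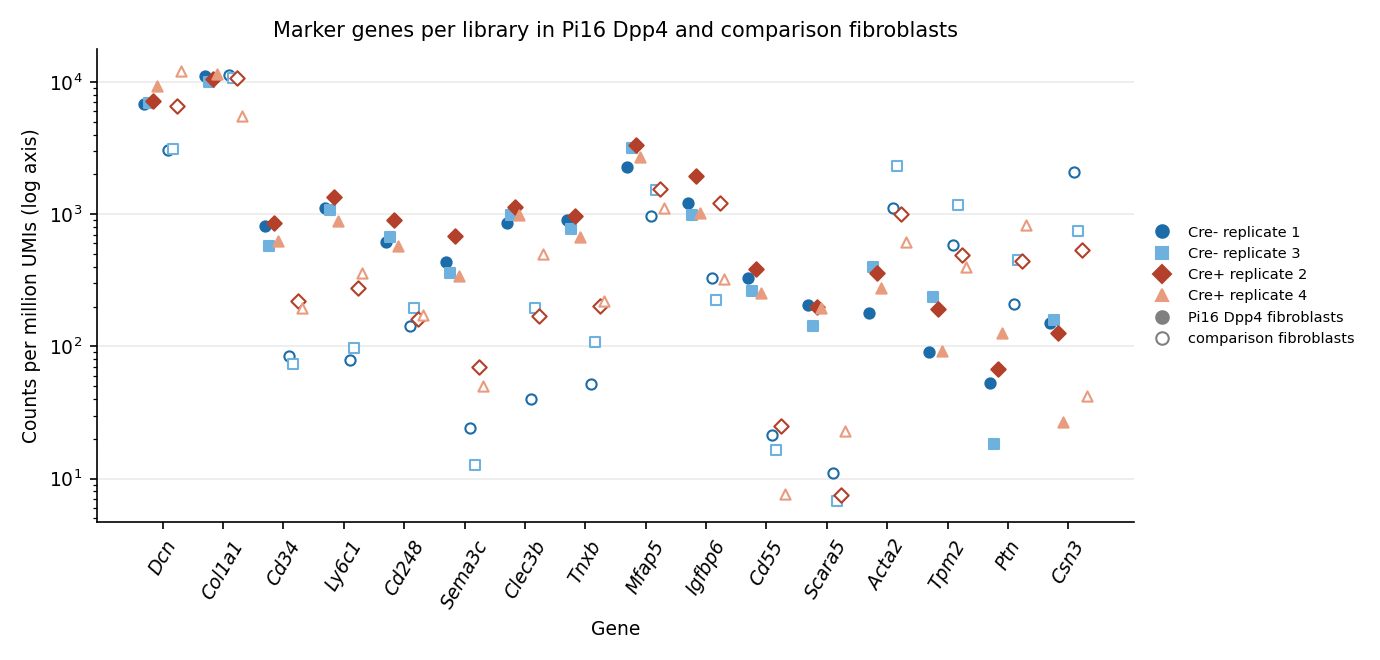
Level of 16 genes in CPM (log axis) in each library, with filled markers for Pi16 Dpp4 fibroblasts and open markers for comparison fibroblasts. Values of 0 are not drawn. Cd34, Ly6c1, Cd248, Sema3c, Clec3b, Tnxb, Mfap5, Cd55 and Scara5 lie higher in the filled markers of every library and Acta2, Tpm2, Ptn and Csn3 lower, while Dcn and Col1a1, genes of the fibroblast limits, overlap.

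The comparison of the 2 classes asked which genes go with Pi16 and Dpp4 among tumor fibroblasts. Counts were summed per library and class, and the 8 sums were tested with the quasi-likelihood test of edgeR with the mouse as a block, at a Benjamini-Hochberg adjusted p of 0.05. Of 9966 genes tested, 490 (4.92%) were higher and 319 (3.2%) lower in Pi16 Dpp4 fibroblasts. In the purified comparison 221 (2.32%) were higher and 133 (1.4%) lower of 9523 genes, and 207 of the 490 and 101 of the 319 were called again in the same direction. Since Pi16 and Dpp4 define the classes and their known partner genes were listed with results of these data in view, the adventitial list below is a description of the class and not independent evidence for its name. The libraries differed in weight, and without Cre- replicate 1 the counts fell to 215 higher and 139 lower.

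Among the genes with the largest difference, Efhd1, a calcium-binding mitochondrial protein, stood at 60.4, 53.2, 90.2 and 31.9 CPM against 0, 1.94, 0 and 3.84 CPM, and was close to absent from comparison fibroblasts. Its log2 fold change was 6.09 (standard error 0.528, edgeR adjusted p = 0.000283) and depends on the prior count, since 2 comparison sums were at 0. Akr1c18, the enzyme that inactivates progesterone, was at 115, 137, 199 and 50.0 CPM against 1.05, 14.6, 2.51 and 0 CPM. Cd55, which protects cells from complement, was at 331, 264, 387 and 254 CPM against 21.6, 16.5, 25.1 and 7.68 CPM, a log2 fold change of 4.10 (standard error 0.199, edgeR adjusted p = 2.56e-05). In all 3 genes the lowest Pi16 Dpp4 value was above the highest comparison value.

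Scara5, a ferritin receptor, stood at 207, 142, 198 and 196 CPM against 11.0, 6.80, 7.54 and 23.0 CPM, a log2 fold change of 4.17. Aldh1a3, which makes retinoic acid, had a log2 fold change of 3.89, with 193 CPM in Cre+ replicate 2 and 75.2 to 84.9 CPM in the other libraries. The adhesion molecules Cadm3 and Opcml, at log2 fold changes of 4.07 and 3.81, and the glycosyltransferase Galnt16, at 3.38, followed. Lrrn4cl (3.32), the proprotein convertase Pcsk6 (3.22), suprabasin Sbsn (3.16), lubricin Prg4 (3.08), the atypical Cxcl12 receptor Ackr3 (3.08) and Tmem100 (3.02) completed the 15 genes that the rule named. The rule took only genes that were higher in all 4 libraries, and all 15 were called in the purified comparison too.

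Of the 15 genes named as lower in Pi16 Dpp4 fibroblasts, 9 were not called in the purified comparison. The cytokine Il17b (log2 fold change -5.92), the basal keratin Krt14 (-4.42), the lipogenic protein Thrsp (-3.78) and Emid1 (-3.63) were called with all cells and were too low to be tested in the purified comparison. Krt14 stood at 2.10, 5.83, 35.2 and 1194 CPM in comparison fibroblasts and at 0, 4.39, 3.87 and 0 CPM once the cells with basal genes or little Dcn were removed. Clca3a2 (-3.65), the protease inhibitor Slpi (-3.62), the mitochondrial carrier Ucp2 (-3.31), Mtss1 (-3.26) and the pyrophosphate transporter Ank (-2.51) did not pass in the purified comparison, with edgeR adjusted p between 0.0521 for Slpi and 0.300 for Ucp2.

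The other 6 were called lower in both. The growth factor pleiotrophin, Ptn, stood at 52.9, 18.2, 67.5 and 126 CPM in Pi16 Dpp4 fibroblasts, against 211, 451, 440 and 822 CPM in comparison fibroblasts and 223, 365, 190 and 440 CPM in purified ones. Its log2 fold change was -2.94 (standard error 0.366, edgeR adjusted p = 0.00151) and -2.55 in the purified comparison (adjusted p = 0.0122). Carboxypeptidase E, Cpe (-5.14 and -3.34), myosin light chain kinase, Mylk (-3.48 and -2.07), the transcription factor Trps1 (-3.09 and -2.14), the matrix protein Sparcl1 (-2.72 and -1.65) and syndecan Sdc3 (-2.54 and -1.62) were likewise called lower with all cells and in the purified comparison. In Cre+ replicate 4 the order of Trps1 turned, at 12.9 CPM in Pi16 Dpp4 fibroblasts against 5.80 CPM in purified comparison cells. Mylk was nearly level there, at 5.66 against 5.80 CPM. With comparison cells matched to Pi16 Dpp4 cells of similar depth, Sparcl1 did not pass (edgeR adjusted p = 0.115) and Cpe could not be tested.

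Lists of genes with related roles are described by how many members passed the test in each direction and by the median log2 fold change of the tested members, beside a median of 0.00 over all genes tested. Genes of the selection limits were left out of every list. The background for each list count is the share over all genes tested. It was 4.92% higher and 3.2% lower with all cells, and 2.32% and 1.4% in the purified comparison.

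Of 33 listed genes of adventitial progenitor fibroblasts, 31 were tested, 28 were higher and 0 lower, with a median log2 fold change of 2.61. In the purified comparison 29 were higher and 0 lower, with a median of 2.17. Besides the genes above, Wnt2, a Wnt ligand (log2 fold change 3.00), Tnxb, a tenascin of loose connective tissue (2.76), Has1, a hyaluronan synthase (2.75), the collagen receptor Cd248 (2.07), Ly6a (1.94), Anxa3 (1.88) and Igfbp6, a binding protein of insulin-like growth factor 2 (1.63), were among them. Has1 was uneven, at 895 CPM in Cre- replicate 1 and 242, 408 and 370 CPM in the others. Igfbp5, Uchl1 and Bmp7 were tested and did not pass with all cells. Igfbp5, a binding protein of insulin-like growth factors, stood at 1207, 804, 1584 and 755 CPM against 6328, 362, 2229 and 618 CPM, below the comparison fibroblasts in Cre- replicate 1 and Cre+ replicate 2 and above them in the other libraries.

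Genes of parenchymal and preadipocyte fibroblasts, the other main resident kind, were called in both directions with all cells. Of 26 tested, 2 were higher and 4 lower, with a median of 0.01, beside 4.92% higher and 3.2% lower of all genes tested. In the purified comparison 0 were higher and 6 lower, at a median of -0.26. With depth-matched cells 3 were higher and 1 lower of 25 tested, at a median of 0.01. Over all 7296 genes tested with depth-matched cells, 163 were higher and 70 lower. The 4 genes lower with all cells were also called lower in the purified comparison. Fabp4, a fatty acid carrier (log2 fold change -2.30), stood at 3.16, 23.0, 5.16 and 262 CPM in Pi16 Dpp4 fibroblasts against 50.5, 50.5, 55.3 and 972 CPM with all cells, lower in every library, and against 4.12, 73.1, 3.87 and 1466 CPM in the purified comparison. Its level was highest in Cre+ replicate 4 in both classes. Inmt, a methyltransferase (-1.97), Sparcl1, and Enpp2, the enzyme autotaxin (-1.15), were the others. The higher pair, Podn and Cygb, did not pass in the purified comparison. Of 12 adipocyte genes, 2 were tested and 1, the shared gene Fabp4, was lower.

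Of 28 tested genes of contractile and TGF-beta-responsive fibroblasts, 9 were lower and 1 was higher, with a median of -0.45. In the purified comparison 9 were lower and 0 higher, with a median of -0.72. With depth-matched cells 5 were lower and 0 higher of 28 tested, with a median of -0.33. The summed list stood at 26822, 31977, 29819 and 30473 CPM against 36292, 43619, 32127 and 18535 CPM, so that its order turned in Cre+ replicate 4, and Sparc, its most abundant gene, did not pass. Acta2 stood at 180, 400, 360 and 278 CPM in Pi16 Dpp4 fibroblasts against 1118, 2316, 1003 and 615 CPM in comparison fibroblasts, and the classes did not overlap. Its log2 fold change was -1.92 (standard error 0.276, edgeR adjusted p = 0.00279) and -1.66 in the purified comparison (adjusted p = 0.033), where Cre+ replicate 2 had 422 CPM in the comparison cells and 360 CPM in the Pi16 Dpp4 cells. Tropomyosin Tpm2 (-2.09), myosin light chain Myl9 (-1.67) and smooth muscle actin Actg2 (-4.32) were lower with it, and Actg2 was the exception in Cre+ replicate 2, with 6.07 CPM against 2.51 CPM. The activin subunit Inhba (-1.71) and the matrix protein Spon1 (-0.97) were also lower in both comparisons. The higher gene, the protease Fap (0.78), did not pass in the purified comparison. Basal epithelial cells also express Acta2, Actg2 and Myl9, and their part in these differences was not tested.

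**Figure D2:**
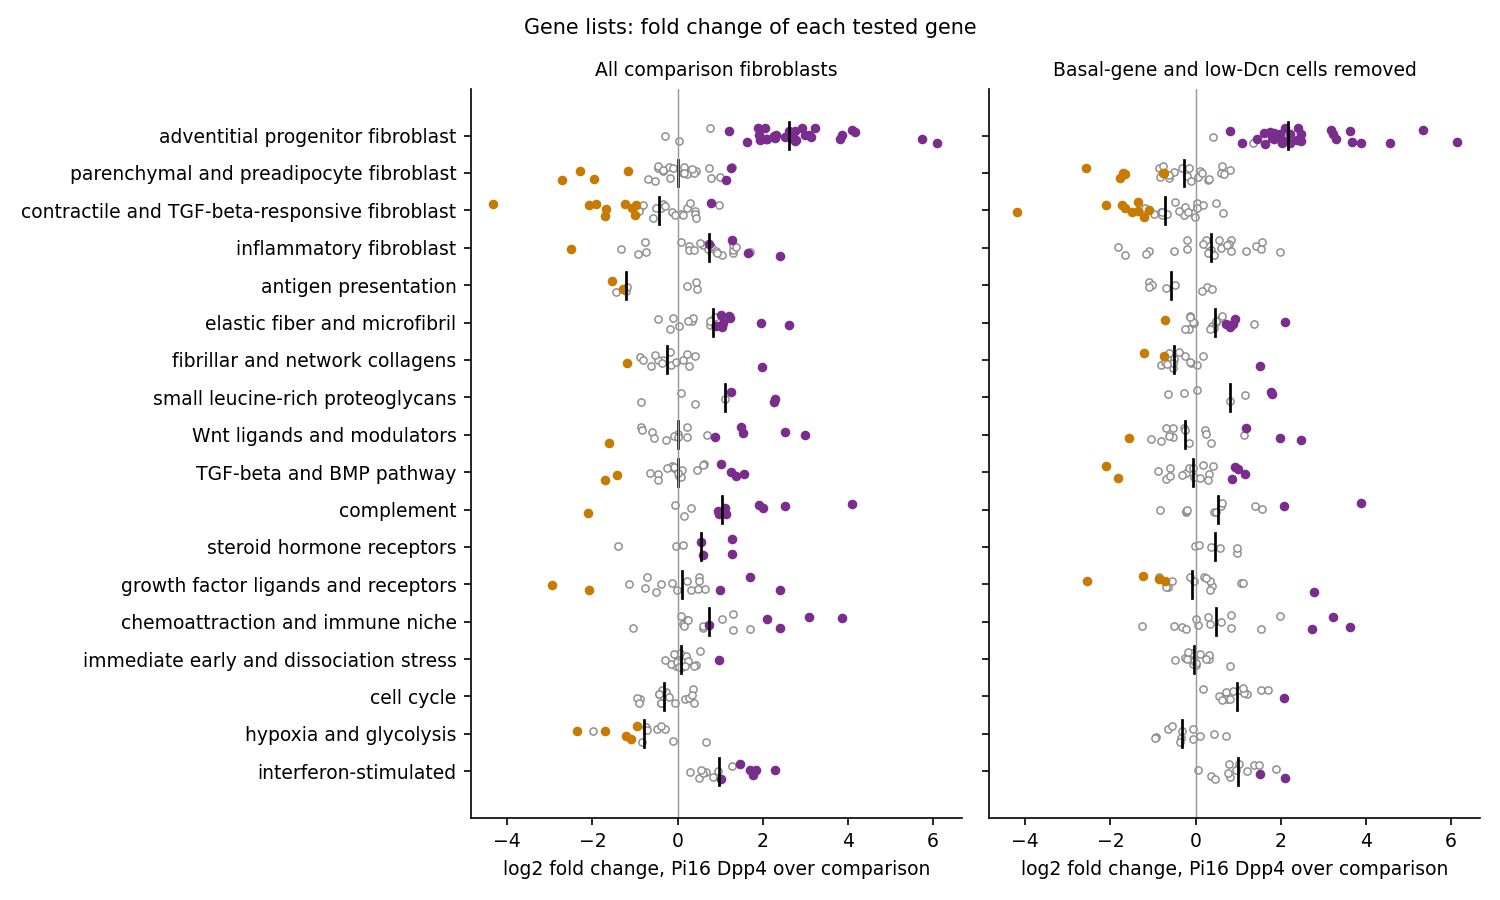
Log2 fold change of each tested gene of 18 lists, Pi16 Dpp4 over comparison fibroblasts, with all cells (left) and with the cells with basal genes or little Dcn removed (right). Purple points were called higher and orange points lower at an edgeR adjusted p of 0.05, open grey points were not called, and the black tick is the list median; the called genes of the adventitial list all lie to the right of 0 in both panels, and several complement, hypoxia and inflammatory calls are absent on the right.

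Of 20 tested elastic fiber and microfibril genes of the extracellular matrix, 8 were higher and 0 lower, with a median of 0.84, and in the purified comparison 5 were higher and 1, Emilin1, was lower. Fibrillin Fbn1 stood at 2288, 2343, 2823 and 1923 CPM against 1235, 1310, 1606 and 676 CPM, a log2 fold change of 1.05, and Emilin2 (2.61) and the TGF-beta-binding Ltbp4 (1.24) were called in both. Efemp1 (1.96) was called with all cells alone. Among 16 collagens outside the limits, 1 was higher, Col14a1, a fibril-associated collagen at 989, 872, 1142 and 946 CPM against 270, 198, 580 and 123 CPM (log2 fold change 1.98), and 1 was lower, the basement membrane chain Col4a5 (-1.19), which did not pass in the purified comparison. There 1 was higher and 2, Col12a1 and Col15a1, were lower. With all cells, 1 call in each direction placed the collagens near the 4.92% higher and 3.2% lower of all genes tested. Osteoglycin, Ogn (2.30), and osteomodulin, Omd (2.26), were the small leucine-rich proteoglycans called higher in both comparisons, of 7 tested.

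Signaling genes of the Wnt and TGF-beta families were called in both directions with all cells. Of 17 tested Wnt ligands and modulators, 5 were higher and 1 lower, beside 4.92% higher and 3.2% lower of all genes tested. The 1 lower call lay near the share over all genes, and with depth-matched cells 3 were higher and 0 lower of 15 tested. The Wnt antagonist Sfrp4 stood at 391, 211, 360 and 528 CPM against 106, 10.7, 121 and 69.1 CPM, a log2 fold change of 2.53, and it was called in both comparisons with Wnt2 and Dact1 (1.54). Sfrp2 (0.88) and the receptor Fzd4 (1.49) were called with all cells alone. Wnt5a, a ligand of noncanonical Wnt signaling, was lower at 47.5, 27.3, 16.5 and 19.6 CPM against 206, 61.2, 72.9 and 30.7 CPM (log2 fold change -1.62, and -1.56 in the purified comparison).

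Of 20 tested genes of the TGF-beta and BMP pathway, 4 were higher and 2 lower, with the same counts in the purified comparison. The shares over all genes tested were 4.92% and 3.2% with all cells and 2.32% and 1.4% in the purified comparison. Receptors were among the higher genes, with Tgfbr2 at 1094, 813, 1046 and 741 CPM against 353, 306, 286 and 323 CPM, a log2 fold change of 1.57, and Tgfbr3, a coreceptor, at 1.26. The BMP antagonist Nbl1 (1.37) was higher, and the activin subunits Inhba and Inhbb (-1.42) were lower. Tgfb1, Tgfb2 and Tgfb3 were tested and did not pass.

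Of 18 tested growth factor ligands and receptors, 3 were higher and 2 lower with all cells, and 1 was higher and 4 lower (Ptn, Nrg1, Pdgfrb and Mdk) in the purified comparison. The shares over all genes tested were 4.92% and 3.2% with all cells and 2.32% and 1.4% in the purified comparison. The angiogenic ligands Vegfd (log2 fold change 1.69) and Fgf2 (1.00) were called with all cells alone, as was Pdgfa (-2.07) on the lower side beside Ptn. Among 17 tested genes of chemoattraction and immune niches, 5 were higher and 0 lower, and Ackr3, Sema3c and Sema3d, a semaphorin (2.09), were called in both comparisons. The chemokine Cxcl13 (2.42) and the alarmin Il33 (0.73) were called with all cells alone.

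Complement genes were called higher with all cells and mostly not in the purified comparison. Of 12 tested, 8 were higher and 1 lower, with a median of 1.04, but in the purified comparison 2 were higher and 0 lower. The central component C3 stood at 2236, 1887, 1916 and 1889 CPM in Pi16 Dpp4 fibroblasts against 262, 285, 844 and 1344 CPM, so the Pi16 Dpp4 level was even across libraries while the comparison level was higher in both Cre+ libraries. In the purified comparison C3 had a log2 fold change of 1.39 that did not pass (edgeR adjusted p = 0.129), and the value turned in Cre+ replicate 4, at 2028 CPM in comparison cells. Factor B, Cfb, was called in both, at 407, 430, 391 and 497 CPM against 31.0, 53.4, 133 and 161 CPM. C4b (2.01) and clusterin, Clu (-2.11), were called with all cells alone. Cd55, which also belongs to this list, was the other gene called in both.

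Inflammatory genes followed the same course, with 4 higher and 1 lower of 25 tested by edgeR and 0 in either direction in the purified comparison. The neutrophil chemokine Cxcl1 had a log2 fold change of 1.65 with all cells (edgeR adjusted p = 0.0252) and of 1.18 without the removed cells (adjusted p = 0.116). Lcn2, an iron-binding protein that epithelium also makes, was lower at -2.51 and did not pass in the purified comparison. Among 8 tested genes of antigen presentation, 2 class II genes were lower with all cells (H2-Ab1, -1.55) and 0 in the purified comparison.

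Steroid hormone receptors are of interest in this tissue because estrogen acts on the mammary stroma. Esr1, the estrogen receptor, stood at 55.7, 39.2, 54.3 and 53.6 CPM in Pi16 Dpp4 fibroblasts against 11.0, 18.5, 40.2 and 34.6 CPM, higher in every library, with a log2 fold change of 1.28 (edgeR adjusted p = 0.0278). In the purified comparison it was 0.97 and did not pass (adjusted p = 0.166). In the epithelial cells of the same libraries Esr1 stood at 13.6, 1.75, 8.08 and 0.309 CPM. Of 7 tested receptors 4 were higher by edgeR with all cells, at a median of 0.54, and of 6 tested in the purified comparison 0 passed, at a median of 0.46. Of all genes tested, 4.92% were higher with all cells and 2.32% in the purified comparison. Pgr, the progesterone receptor, was too low to be tested, at 10.8, 1.89, 2.45 and 0 CPM.

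Of 14 tested interferon-stimulated genes, 6 were higher and 0 lower, at a median of 0.98, and 2 were higher in the purified comparison, where the median was likewise 0.98. Of all genes tested, 4.92% were higher with all cells and 2.32% in the purified comparison. Ifit1 was called in both, at 88.3, 48.7, 140 and 88.6 CPM against 23.1, 8.74, 27.6 and 11.5 CPM, a log2 fold change of 2.30, as was Ifi27l2a (1.77). The regulator Irf7 (1.46) was called with all cells alone. Of 14 tested genes of hypoxia and glycolysis, 5 were lower with all cells, among them Pfkl (-1.71) and Eno1 (-1.10), and 0 in the purified comparison.

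Cell cycle genes gave 0 calls of 16 tested with all cells. In the purified comparison 1 of 14, Ube2c, was higher, and the median turned from -0.32 to 0.96. Of 16 immediate early and dissociation stress genes, 1, Atf3 (0.98), was higher with all cells alone. Igfbp6 was the called gene of 11 tested insulin-like growth factors and binding proteins. These single calls stand beside 4.92% higher of all genes tested with all cells and 2.32% in the purified comparison. They are not read as results about the lists. Of the partners of Frmd8 in protein shedding, Adam17 was higher by 0.71 with all cells alone, of 4 tested.

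Markers of other cell types were present at low levels and were lower in Pi16 Dpp4 fibroblasts where they were called, with the exceptions of the potassium channel subunit Kcnj8 of the mural list (1.61, in both comparisons) and Mbp of the Schwann list, which was called with all cells alone. The 14 epithelial markers summed to 850, 524, 396 and 368 CPM in Pi16 Dpp4 fibroblasts, led by Wfdc18, of the whey acidic protein family, against 3494, 2346, 1854 and 2604 CPM in comparison fibroblasts. After the removal of cells with basal genes or little Dcn, the comparison sums were 1398, 1807, 1106 and 267 CPM, below the Pi16 Dpp4 sum of the whole class in Cre+ replicate 4 alone. Of 7 tested epithelial markers 3 were lower, and the milk protein Csn3 (-2.32) was called in both comparisons. The 10 macrophage markers summed to 69.9, 121, 103 and 165 CPM against 113, 904, 171 and 131 CPM, led by Lyz2 in 3 libraries and by C1qa in Cre+ replicate 4.

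T and NK cell markers summed to at most 4.12 CPM and skeletal muscle markers to at most 5.66 CPM in Pi16 Dpp4 fibroblasts, and 0 genes of either list could be tested. The 8 endothelial markers summed to 38.6, 25.3, 26.7 and 14.4 CPM, with Flt1 leading in the first 3 libraries. The 8 mural markers summed to 110, 172, 130 and 128 CPM, with Mcam called lower than in comparison fibroblasts with all cells alone (-3.39). In the purified comparison 0 of 4 tested mural markers were lower. Schwann cell markers summed to 32.9, 23.1, 24.5 and 33.0 CPM, and mesothelial markers to 16.5, 7.41, 7.34 and 2.57 CPM. Of 5 fibroblast markers outside the limits 1 was higher with all cells, Fstl1, and in the purified comparison 1 was higher and 1 lower. The part of these other cells in the class differences was not tested beyond the values given.

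Within the class, Pi16 Dpp4 fibroblasts varied in a graded way. In each library they were divided into tertiles by Pi16 and Dpp4 UMIs per 10000, which gave 266, 267 and 269 cells over the libraries. This is a description of cells ordered by the selecting genes, and the tertiles share their libraries. Pooled Cd34 was 322, 884 and 1269 CPM from the lowest to the highest tertile, Sema3c 166, 548 and 1085 CPM, Clec3b 415, 1205 and 1835 CPM, and Igfbp6 871, 1666 and 2236 CPM. Each of the 4 genes was higher in the middle than in the lowest tertile and higher in the highest than in the middle.

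The order of Cd34 held in each library, from 332, 262, 348 and 381 CPM in the lowest tertile to 1402, 1049, 1411 and 1078 CPM in the highest. Comparison fibroblasts lay below the lowest tertile in all 4 libraries, at 84.6, 73.8, 219 and 196 CPM. Acta2 went the other way, from 376, 808, 800 and 401 CPM in the lowest tertile to 3.76, 8.12, 2.85 and 7.63 CPM in the highest. Cells with the most Pi16 and Dpp4 thus held nearly no Acta2, while the lowest tertile of every library held less than the comparison cells of that library. Col15a1, a collagen of basement membranes and a marker of the parenchymal kind, was also lower at the top, at 485, 462, 332 and 591 CPM in the lowest and 55.1, 81.2, 83.0 and 202 CPM in the highest tertile. Its lowest-tertile values lay near the 368, 526, 307 and 415 CPM of comparison fibroblasts, and in sums over the whole class Col15a1 did not pass the class test with all cells, although it was called lower in the purified comparison.

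Depth moved with the tertiles in 3 libraries and little in Cre+ replicate 4. Median UMIs per cell were 32031, 33724, 35115 and 19158.5 in the lowest and 17455.5, 24973, 24786 and 18822 in the highest tertile, and the part of depth or of doublets in the gradient was not tested.

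**Figure D3:**
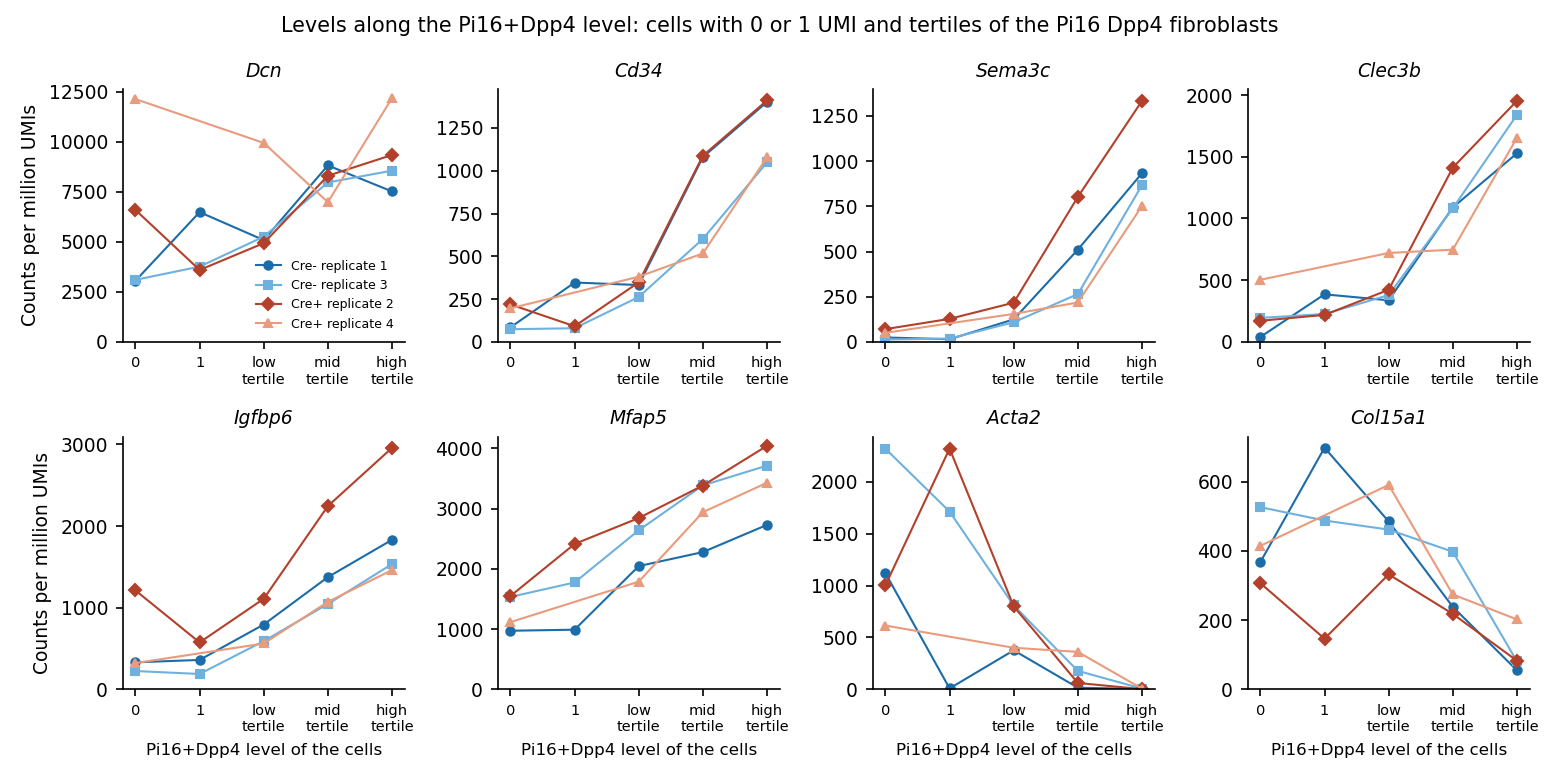
Level of 8 genes in CPM, per library, in fibroblasts with 0 or 1 Pi16 and Dpp4 UMI and in the tertiles of Pi16 Dpp4 fibroblasts; lines join values of 1 library. Cre+ replicate 4 had 0 cells with 1 UMI. Cd34 and Sema3c are higher and Acta2 lower at the highest tertile than at the lowest in every library.

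The genotype comparison asked whether these stromal cells differ in tumors whose epithelium lost Frmd8. Pi16 Dpp4 fibroblasts were 68.0%, 75.8%, 89.3% and 86.9% of the fibroblasts that passed the limits, with exact binomial 95% intervals of 61.1 to 74.4, 70.6 to 80.5, 85.8 to 92.2 and 78.6 to 92.8. The mean share of Cre- mice was 71.9 ± 5.54% and that of Cre+ mice 88.1 ± 1.73% (SD, 2 mice each), higher in both Cre+ libraries than in both Cre- libraries by 16.2 percentage points in the mean. The two-sided exact permutation test gave p = 0.333, the smallest value that 2 mice against 2 allow, so a threshold of 0.05 could not be reached. The intervals cover counting error only, and Cre+ replicate 4 rested on 99 fibroblasts.

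Since deeper cells reach 2 UMIs more easily, each cell was also thinned to 2000 UMIs. The share was then 45.0%, 43.7%, 66.4% and 61.6%, a difference of 19.7 points with the same order of the groups (exact permutation test, p = 0.333). As a share of all barcodes, Pi16 Dpp4 fibroblasts averaged 3.18 ± 1.03% for the Cre- pair and 3.64 ± 3.30% for the Cre+ pair (SD), and the groups overlapped (exact permutation test, p = 1), with the lowest and the highest of the 4 values both in Cre+ mice. Comparison fibroblasts numbered 55, 46, 27 and 13 among 5550, 5871, 5879 and 6576 barcodes, fewer in both Cre+ libraries than in both Cre- libraries. Within fibroblasts, a higher share of this class cannot be told apart from a lower number of the others, and the part of cell capture and sorting was not tested.

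**Figure D4:**
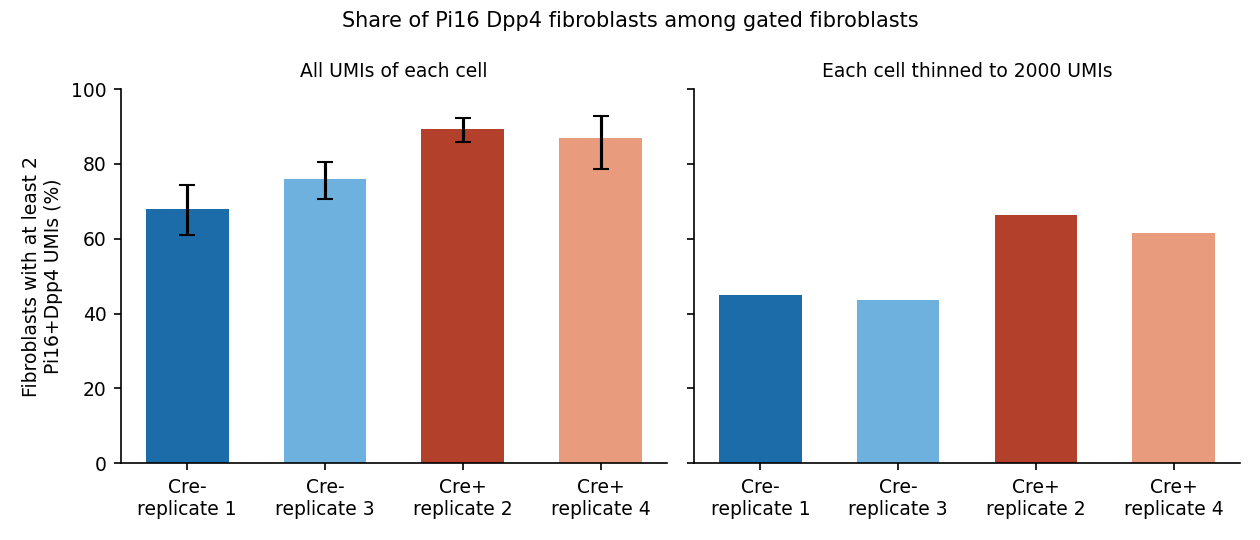
Share of Pi16 Dpp4 fibroblasts among fibroblasts that passed the limits, in percent, with all UMIs (left; error bars are exact binomial 95% intervals) and after thinning each cell to 2000 UMIs (right; no intervals). Both Cre+ libraries lie above both Cre- libraries in both panels.

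Frmd8 itself was low in Pi16 Dpp4 fibroblasts, at 12.7, 19.5, 15.7 and 13.4 CPM from 40, 134, 173 and 26 UMIs. The values of the 2 groups overlapped (log2 fold change, Cre+ over Cre-, of -0.13, standard error 0.265, edgeR adjusted p = 1.00). In epithelial cells of the same libraries, the target of Cre, Frmd8 stood at 24.8, 24.8, 5.87 and 11.2 CPM, lower in both Cre+ libraries. It was also lower in both Cre+ libraries in macrophages, at 25.7, 23.1, 18.7 and 13.5 CPM, and in comparison fibroblasts, at 24.7, 27.2, 12.6 and 7.68 CPM, the last 2 from 5 and 2 UMIs. The 3' counts register any transcript with an intact 3' end. Whether the counts include transcripts that lost inner exons was not tested.

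Of 11713 genes tested in Pi16 Dpp4 fibroblasts, 2 (0.0171%) passed the edgeR test between genotypes, and 401 had an unadjusted p under 0.05. Libraries of the 2 groups did not overlap for 1554 genes higher in Cre+ (13.3%) and 2056 genes lower in Cre+ (17.6%), which is the background for any single gene with separate groups. Both genes that passed, Spp1 and Scg3, were lower in Cre+ mice. The edgeR test between genotypes called 0 genes of any list. Pi16, which took part in the selection, stood at 1400 and 1283 CPM in Cre- and at 2148 and 2025 CPM in Cre+ mice. Esr1 overlapped between the groups.

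Spp1, the secreted matrix protein osteopontin, stood at 703 and 740 CPM in Cre- and at 31.1 and 14.4 CPM in Cre+ mice. Its log2 fold change was -4.85 (standard error 0.339, edgeR adjusted p = 0.0267). The signal lay in few cells, since the 5 cells with the most Spp1 held 89.3%, 87.9%, 65.0% and 75.0% of its UMIs in the 4 libraries, and without them the levels were 81.4, 93.7, 11.2 and 3.99 CPM. Other cells of the same tumors held much Spp1, with 17136, 2683, 3307 and 7.68 CPM in comparison fibroblasts, 1008, 3215, 912 and 27.2 CPM in epithelial cells and 5855, 1576, 1506 and 565 CPM in macrophages. Spp1 was thus lower in both Cre+ libraries in epithelial cells and macrophages too, and the groups overlapped in comparison fibroblasts. The part of RNA from such cells in the Spp1 of Pi16 Dpp4 fibroblasts was not tested. With cells of 200 to 5000 genes and under 30000 UMIs, limits with the values that the study's methods name, read here as the cells kept although the methods word them as excluded, the log2 fold change was -2.28 and did not pass (adjusted p = 0.821).

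Scg3, a secretogranin of secretory granules, stood at 81.0 and 89.4 CPM in Cre- and at 6.43 and 9.27 CPM in Cre+ mice, and the groups did not overlap. Its log2 fold change was -3.53 (standard error 0.212, edgeR adjusted p = 0.0207). The 5 cells with the most Scg3 held 75.8%, 37.4%, 63.4% and 72.2% of its UMIs, and without them the levels were 20.5, 56.9, 2.40 and 2.75 CPM, still higher in both Cre- libraries. Epithelial cells held at most 0.398 CPM of Scg3, and comparison fibroblasts held 6.31, 34.0, 7.54 and 3.84 CPM. After removal of the cells with basal genes or little Dcn, Scg3 no longer passed (adjusted p = 0.128), although its log2 fold change, -3.36, was about as large. Within 200 to 5000 genes and under 30000 UMIs it did not pass either (log2 fold change -5.00, edgeR adjusted p = 0.309). Leaving out either Cre- library likewise ended the call of both genes with little change in size. Without replicates 1 and 3 in turn, the log2 fold changes were -4.90 and -4.83 for Spp1 (edgeR adjusted p = 0.0710 and 0.149) and -3.59 and -3.45 for Scg3 (adjusted p = 0.0615 and 0.110).

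**Figure D5:**
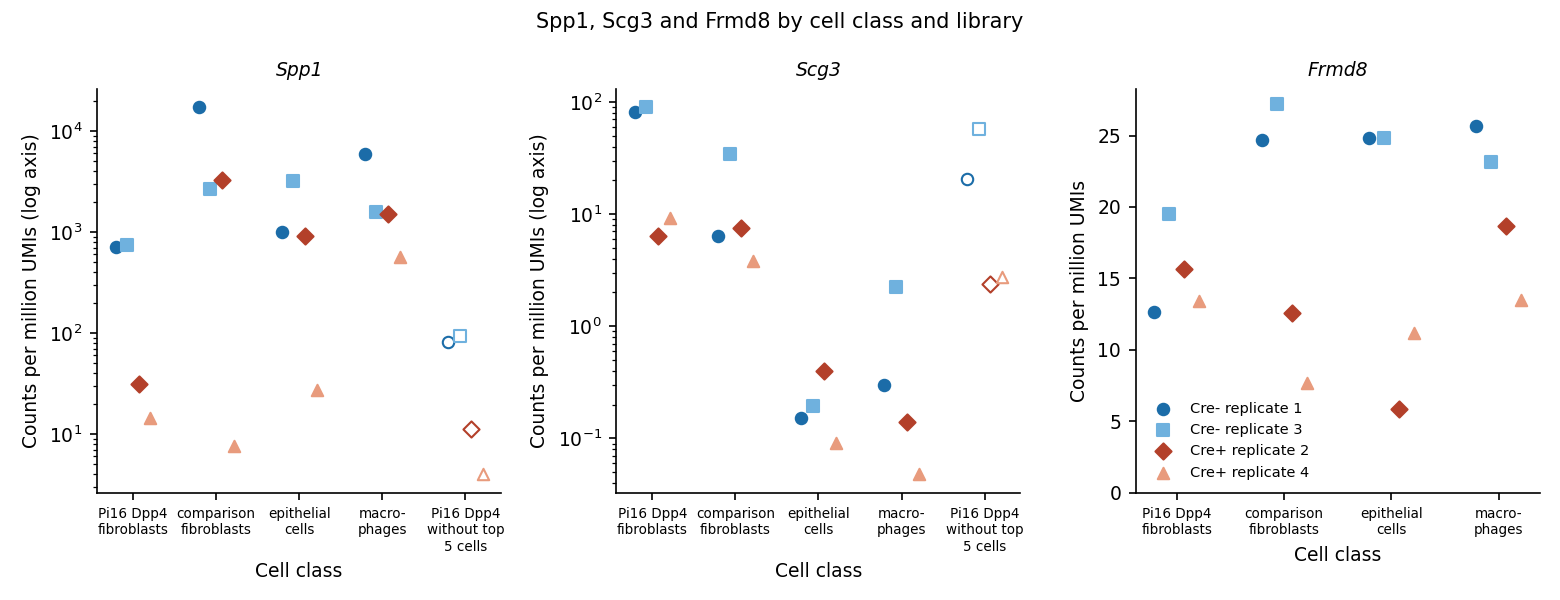
Level of Spp1, Scg3 (log axes) and Frmd8 (linear axis) in CPM by cell class and library; open markers are Pi16 Dpp4 fibroblasts without the 5 cells that hold the most UMIs of that gene. Spp1 and Scg3 lie lower in both Cre+ libraries of Pi16 Dpp4 fibroblasts, while Frmd8 overlaps there and is lower in both Cre+ libraries in epithelial cells, macrophages and comparison fibroblasts. Spp1 also lies lower in both Cre+ libraries in epithelial cells and macrophages.

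Comparison fibroblasts gave 0 calls between genotypes of 7713 genes tested with edgeR (0.0%), with 446 at an unadjusted p under 0.05 and 17 calls by DESeq2. A test of whether the genotype difference differed between the classes called 0 of 10877 genes (0.0%), with 482 at an unadjusted p under 0.05 and 3 calls by DESeq2. For Spp1 and Scg3, a difference particular to Pi16 Dpp4 fibroblasts was thus not shown.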

How the data were processed

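The deposited matrices of the 4 libraries hold unnormalized UMI counts (10x Genomics 3' kit, NovaSeq, 32285 genes). Per the file headers, 3 matrices came from Cell Ranger 6.1.2 and that of Cre+ replicate 4 from Cell Ranger 4 without cell calling, so every library was limited to barcodes of at least 2000 UMIs. The submitters' processing notes name the build hg38 while the genes are mouse Ensembl genes, and no coordinates are given. The class members and gene lists were chosen with earlier results of these data known.

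Counts were summed per library and class (at least 10 cells a sum) and tested with edgeR 4.0.16 in R 4.3.3 (filterByExpr, TMM, quasi-likelihood, Benjamini-Hochberg over all genes tested, threshold 0.05), after the test had been tried on simulated data. The class test had the mouse as a block, since both sums of a library were taken to come from 1 mouse. Genotype tests compared 2 mice with 2 on the same reading. The standard error is the log2 fold change divided by the square root of F. CPM are counts over all UMIs of a sum, per 1000000. Shares were compared by two-sided exact permutation tests, and cells were thinned without replacement with a fixed seed (numpy 2.4.6). The paper's Seurat clustering was not repeated.

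Named genes were list members with a stated role, the genes of the limits, Frmd8, Esr1 and Pgr, and the 15 called genes with the largest rise and the 15 with the largest fall among those that differed the same way in every library and reached a mean of 50 CPM in the higher class, leaving out unnamed and mitochondrial genes. Values of some listed genes are not reported here. DESeq2 1.42.0, other normalizations, depth limits, class limits and left-out libraries were alternatives. No label says whether libraries were prepared together.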

Additional observations from a re-analysis of the deposited data

How the results depend on the processing

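The class comparison, 490 genes higher and 319 lower, gave 464 and 340 with RLE normalization, 409 and 318 with DESeq2, 501 and 329 with Cre+ replicate 4 from 10000 UMIs, and 438 and 293 without the replicate block. It gave 994 and 725 with no filter on low counts, 171 and 102 with 200 to 5000 genes and under 30000 UMIs, 150 and 74 with cells thinned to 2000 UMIs, 194 and 87 with cells with markers of other types removed (which left 6 comparison cells in Cre+ replicate 4, so that this library also dropped out, here and in the tests below that use comparison fibroblasts), 163 and 70 with depth-matched cells, and 221 and 133 with basal-gene and low-Dcn cells removed, the alternative chosen after the data had been seen. Leaving out 1 library gave 215 to 501 higher and 139 to 370 lower, with the lowest counts without Cre- replicate 1 and then Cre+ replicate 2 (306 and 199). The fold changes of named genes numbered 96, counting class fold changes together with the genotype fold changes of Spp1 and Scg3. Of these, 56 to 96 had a value under an alternative, and 0 reversed. The settings with depth-matched cells and without the replicate block hold class fold changes alone. Of those with a value, 54 of 86 kept their call with 200 to 5000 genes and under 30000 UMIs, 61 of 91 with basal-gene and low-Dcn cells removed, 63 of 89 with depth-matched cells, 51 of 89 with markers of other types removed and 72 of 94 without the replicate block.

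The genotype calls in Pi16 Dpp4 fibroblasts, 2 genes, became 264 with no filter on low counts, 15 with DESeq2, 0 with 200 to 5000 genes and under 30000 UMIs, 0 from 3 Pi16 and Dpp4 UMIs, 1 with at least 2 Pi16 UMIs, 1 with basal-gene and low-Dcn cells removed, and 0 to 61 with 1 library left out (61 without Cre+ replicate 2, 8 without Cre+ replicate 4, 1 and 0 without Cre- replicates 1 and 3). From 3 Pi16 and Dpp4 UMIs the adjusted p was 0.0768 for Spp1 and 0.0630 for Scg3, and with at least 2 Pi16 UMIs it was 0.136 for Scg3. In comparison fibroblasts 0 calls became 257 with no filter, 17 with DESeq2, 140 with cells with markers of other types removed and 0 to 8 with 1 library left out, and for the interaction 0 calls became 100, 3, 21 and 0 to 51. The difference in share ranged from 10.9 to 19.7 points over the other settings and from 12.3 to 20.1 points with 1 library left out, at an exact permutation p of 0.333 in each. Where a left-out or dropped library leaves 1 sample in a group, that sample is assumed to vary like the others. The cause of these changes was not tested. No paired analysis was possible because the Cre- libraries (1 and 3) and the Cre+ libraries (2 and 4) share no replicate number. Cells with Pi16 alone against Dpp4 alone could not be fitted, with 9 cells of the latter.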
